A study of Mus musculus with 2 samples.

Results

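The 9 genes described here encode the receptors through which cells sense bone morphogenetic proteins (BMPs), activins and transforming growth factor beta (TGF-beta). They are Acvrl1, the gene of the receptor ALK1, the other type I receptors Acvr1, Bmpr1a and Tgfbr1, the type II receptors Bmpr2, Acvr2a, Acvr2b and Tgfbr2, and the co-receptor Eng (endoglin). They were chosen by symbol, all 9 were found among the 32285 genes of the files, and they are described across the cell classes of the mouse retina. Retinal cells at postnatal day 6, enriched with beads against CD31, a surface protein of endothelium, gave 1 control library (Alk1f/f) and 1 endothelial knockout library (Alk1f/f Cdh5 CreERT2, called Alk1 ECKO or the knockout). Both carry the loxP-flanked Alk1 alleles. The knockout adds a tamoxifen-inducible recombinase under the promoter of Cdh5, the gene of VE-cadherin, which is active in endothelium. The sources used here do not give when recombination was induced, which exons are flanked or how many pups were pooled. There were no replicates, so each difference is one between these libraries, no test between genotypes was possible, and every interval is a 95% interval of counting error only.

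Ligands of this family bind a complex of type I and type II receptor kinases. The type II receptor phosphorylates the type I receptor, which then phosphorylates SMAD proteins that enter the nucleus with SMAD4. In endothelium ALK1 with BMPR2 or an activin type II receptor, and with endoglin as co-receptor, answers BMP9 and BMP10 from the blood and signals through SMAD1, SMAD5 and SMAD9, while TGFBR2 with TGFBR1 (ALK5) signals mainly through SMAD2 and SMAD3. Loss-of-function mutations of ALK1 or endoglin cause hereditary hemorrhagic telangiectasia, in which arteries and veins connect directly.

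Promoter sequence is shown for 4 members because their transcripts differed in how widely they were found: Eng was found mainly in endothelial cells and Tgfbr2 in endothelial cells and microglia, while Acvr2a and Tgfbr1 had UMIs in all 10 classes compared, in both libraries. Each line gives the 250 bases before the start site on the gene's strand, from RefSeq in GRCm38.p6, at chr2:32646345-32646594 (+) for Eng, chr9:116175364-116175613 (-) for Tgfbr2, chr2:48813859-48814108 (+) for Acvr2a and chr4:47352972-47353221 (+) for the first of 2 starts of Tgfbr1. Capitals mark CG pairs, the sites of DNA methylation.
Eng: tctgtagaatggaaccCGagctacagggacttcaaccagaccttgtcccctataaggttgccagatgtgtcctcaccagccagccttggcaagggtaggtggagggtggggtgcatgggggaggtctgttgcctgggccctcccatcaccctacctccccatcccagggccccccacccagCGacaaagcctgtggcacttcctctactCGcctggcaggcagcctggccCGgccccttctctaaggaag
Tgfbr2: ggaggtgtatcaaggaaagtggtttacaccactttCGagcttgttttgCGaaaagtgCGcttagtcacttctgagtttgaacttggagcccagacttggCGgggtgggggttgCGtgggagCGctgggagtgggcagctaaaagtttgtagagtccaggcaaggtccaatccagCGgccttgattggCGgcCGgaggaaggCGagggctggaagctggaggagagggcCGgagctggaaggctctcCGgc
Acvr2a: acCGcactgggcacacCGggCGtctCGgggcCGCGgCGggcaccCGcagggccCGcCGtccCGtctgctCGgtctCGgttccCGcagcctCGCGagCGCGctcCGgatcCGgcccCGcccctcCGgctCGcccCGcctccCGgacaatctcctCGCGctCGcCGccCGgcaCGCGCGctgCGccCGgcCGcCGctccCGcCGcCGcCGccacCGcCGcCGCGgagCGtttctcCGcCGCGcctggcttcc
Tgfbr1: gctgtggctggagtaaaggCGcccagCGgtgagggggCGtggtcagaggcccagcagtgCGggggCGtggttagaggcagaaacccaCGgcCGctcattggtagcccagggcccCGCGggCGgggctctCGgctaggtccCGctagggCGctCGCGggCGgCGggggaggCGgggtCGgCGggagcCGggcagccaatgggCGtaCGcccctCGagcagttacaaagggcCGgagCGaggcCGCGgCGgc
The Eng window held 4 CG pairs and that of Tgfbr2 12, against a median of 6 (quartiles 2 and 16) over all 32851 windows of this length in the table. The windows of Tgfbr1 (29), Acvr2a (49) and the members not printed, Bmpr2 (22), Acvr2b (24), Bmpr1a (36) and Acvr1 (46), all lay above the upper quartile, and only the second start of Tgfbr1 (3) did not. The letters AGGAAG, searched on both strands as a core bound by ETS factors, occurred 2 times in the Eng window and 1 time each in those of Tgfbr2, Bmpr2 and the second Tgfbr1 start, and in none of the other windows of these 8 members. They are found in 29.5% of all windows. The letters GGGCGG, a core bound by SP factors and also searched on both strands, were absent from the Eng and Tgfbr2 windows and occurred 2 times each in those of Acvr2a and Tgfbr1 (32.7% of all windows hold them). GGGCGG contains a CG pair, so these 2 counts are not independent. The table matched 8 of the 9 members, all but Acvrl1. By GENCODE positions, the windows of Bmpr2, Acvr1, Bmpr1a and the second Tgfbr1 start lay within the gene over all 250 bases. A link between these letters and how widely a transcript was found was not tested.

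The control library held 8739 barcodes with 54800465 UMIs (unique molecular identifiers, each marking 1 captured transcript), and the Alk1 ECKO library 5308 barcodes with 62728605 UMIs. After filters and doublet removal 7409 and 4093 cells were retained, among which the libraries shared 14 barcodes. Clusters were named by marker genes without using any member, so each class name stands for cells like that class. Endothelial cells were 313 in control (4.22% of retained cells, although the labels call the sample endothelial cell enriched) and 1261 in Alk1 ECKO (30.8%), and in both libraries all 18 endothelial markers were found in them. Control held only 11 mural cells (pericytes and smooth muscle) and 25 astrocytes, against 160 and 21 in Alk1 ECKO, so levels in these classes are coarse. A further 1243 Alk1 ECKO and 0 control barcodes had few mitochondrial transcripts and were led by haemoglobin genes, with the endothelial genes Gpihbp1 and Icam2 also among their leading genes. They were set aside from every class.

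Acvrl1 and Eng were endothelial transcripts in both libraries. Levels are given as CPM, a gene's UMIs per 1e6 UMIs of the class. The assay tags transcripts at their 3' end, so CPM were not corrected for length. Capture can differ between genes, and the sources used here do not say whether introns were counted. Comparisons of CPM between different genes are thus approximate. Acvrl1, at chr15:101128522-101145336 (+) in mm10, was at 115 CPM (109 to 122) in control endothelial cells and 119 CPM (115 to 122) in those of the knockout. Endothelial cells held 95.9% and 96.9% of its UMIs in the named classes. Microglia or macrophages came next in control, at 29.0 CPM (18.6 to 43.2, 24 UMIs). In the knockout they were at 14.6 CPM (10.8 to 19.3, 49 UMIs), below mural cells at 31.0 CPM (76 UMIs). The microglial values are 25.2% and 12.3% of the endothelial level, while the 18 endothelial markers stood at a median of 0.205% and 1.2% of theirs in the same cells (highest 22.1% and 23.5%). The mural value in the knockout is 26.1% of the endothelial level, beside a marker median of 3.50% (highest 37.2%). The part of endothelial transcripts in these values was not tested. Müller glia or late progenitors held 1 Acvrl1 UMI in control and 0 in the knockout, while rods held 18 UMIs (1.77 CPM) and 4 UMIs (3.78 CPM).

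Eng, at chr2:32646595-32682669 (+), encodes the co-receptor that presents BMP9 to ALK1 and was the most abundant of the 9 in endothelial cells. Its endothelial level was 474 CPM (461 to 487) in control against 359 CPM (353 to 365) in the knockout, or 98.8% and 97.6% of its UMIs in named classes. Mural cells followed at 55.4 CPM (8 UMIs) and 96.2 CPM (236 UMIs), astrocytes at 33.6 CPM (8 UMIs) and 72.5 CPM (19 UMIs), and microglia or macrophages at 20.6 and 20.2 CPM. Neighbours in this order overlapped among mural cells and astrocytes in both libraries. Alk1 ECKO astrocytes, where Acvrl1 stood at 38.2 CPM (10 UMIs) against 0 UMIs in control, held endothelial markers too: the 18 markers summed to 1966 CPM there against 105 CPM in control, all 18 were higher in Alk1 ECKO, and 11 of 18 were at 0 in control. All 10 Acvrl1 UMIs lay in 1 of the 21 Alk1 ECKO astrocytes, and the 19 Eng UMIs in 3 of them. The part of these transcripts in the astrocyte values was not tested. Cones and neurogenic precursors held no Eng UMI in either library.

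**Figure D1:**
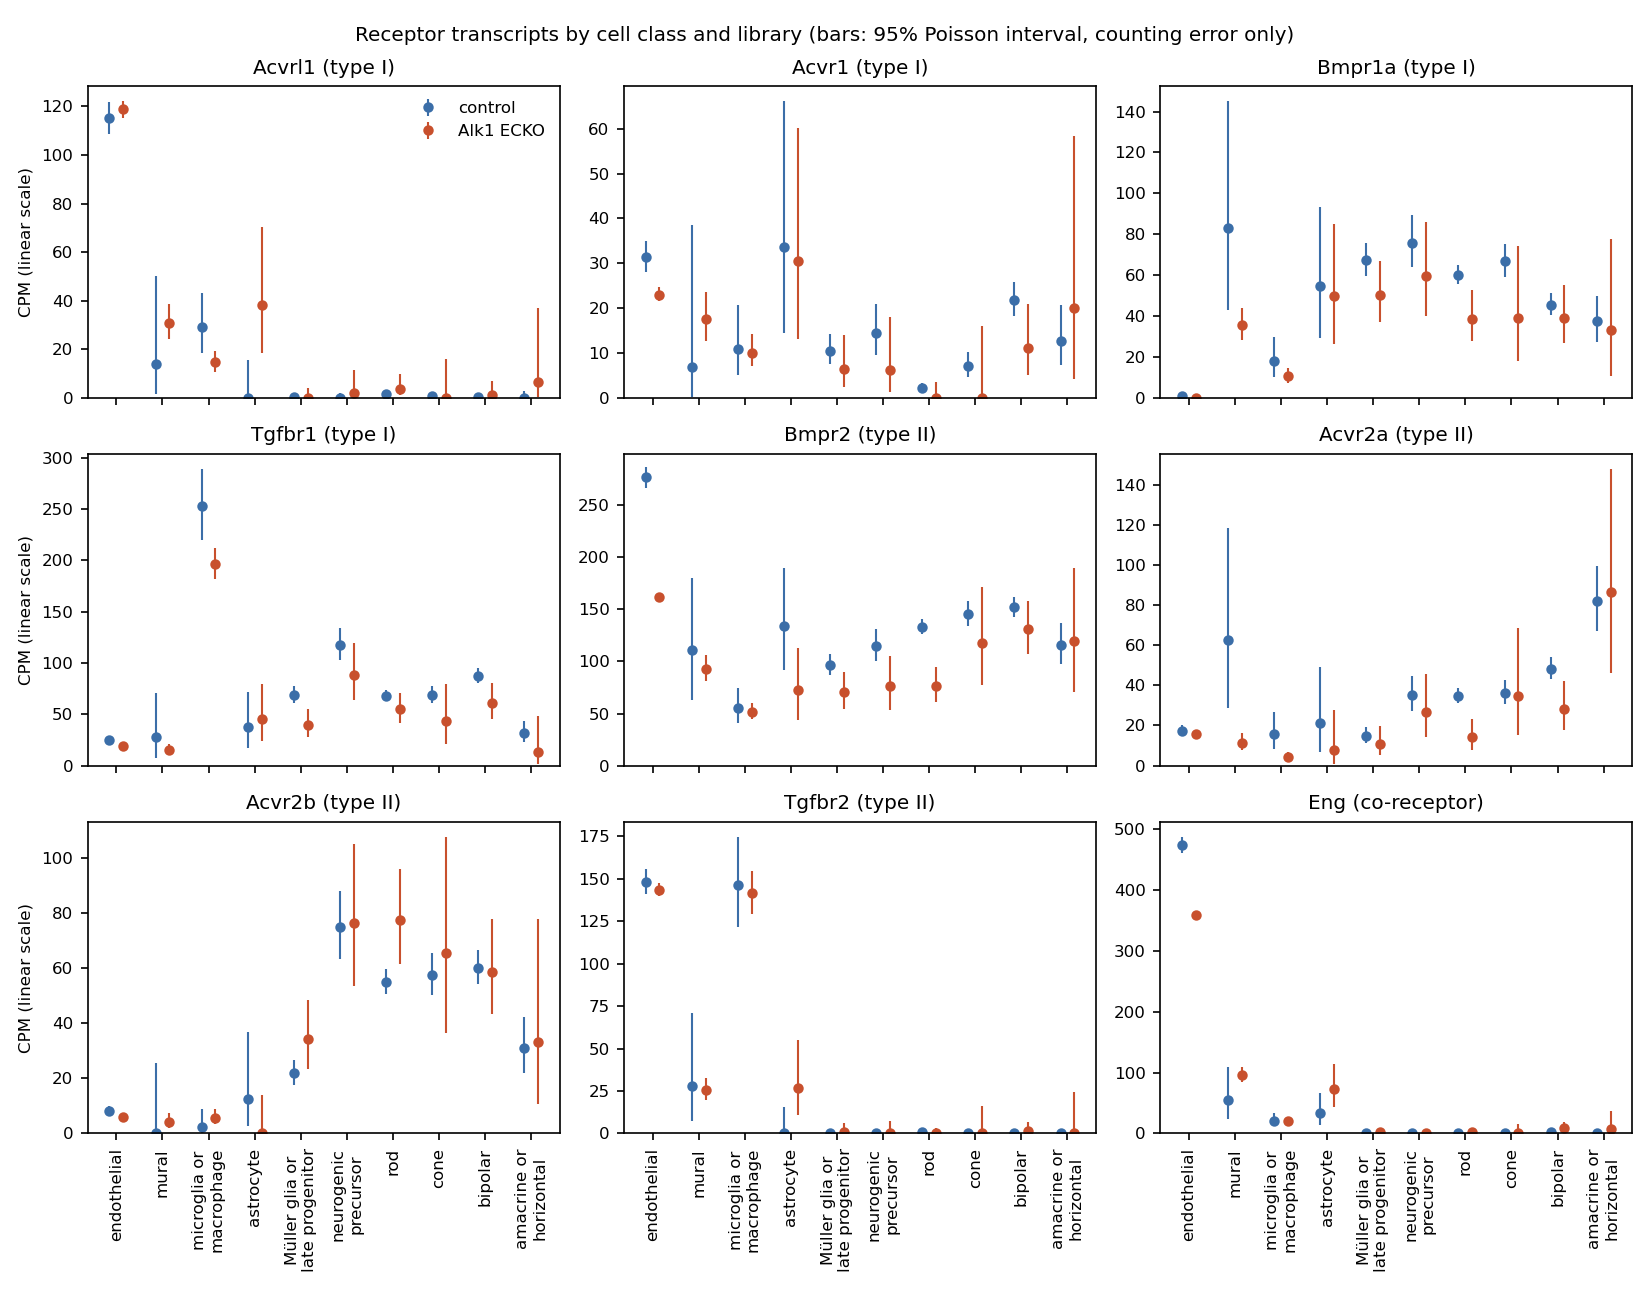
Level of each of the 9 members in CPM (linear axes from 0, a scale of its own per panel) in 10 cell classes, with control in blue and Alk1 ECKO in red and bars for the 95% Poisson interval. Acvrl1 and Eng stand out in endothelial cells, Tgfbr2 in endothelial cells and microglia or macrophages alike (148 and 146 CPM in control), and Bmpr1a is near 0 only in endothelial cells.

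The other type I receptors had patterns of their own. Bmpr1a, at chr14:34410734-34503341 (-), encodes the BMP receptor ALK3 that answers BMP2 and BMP4. It had 7 UMIs in control endothelial cells (0.673 CPM, 0.271 to 1.39) and 5 in Alk1 ECKO (0.132 CPM, 0.043 to 0.308), too few for a ratio. In the 9 other classes it ranged from 18.1 CPM in microglia or macrophages to 83.1 CPM in mural cells of control, and from 10.7 CPM in microglia or macrophages to 59.7 CPM in neurogenic precursors of Alk1 ECKO. No interval of another class reached down to the endothelial one. Tgfbr1, at chr4:47353222-47414931 (+), the type I receptor ALK5 of TGF-beta, was highest in microglia or macrophages, at 253 CPM (220 to 290) in control against 196 CPM (182 to 212) in the knockout. It was at 25.1 and 19.5 CPM in endothelial cells, the lowest of 10 classes in control and the 8th of 10 in Alk1 ECKO, and at 118 and 88.5 CPM in neurogenic precursors. Acvr1, at chr2:58388644-58567157 (-), the BMP and activin receptor ALK2, was low everywhere. Endothelial cells, at 31.4 CPM (28.0 to 35.0) and 23.0 CPM (21.5 to 24.6), and astrocytes, at 33.6 and 30.5 CPM (8 UMIs each), overlapped at the top. Rods had 2.16 CPM in control and 0 UMIs in the knockout, where the interval reached up to 3.48 CPM.

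Among type II receptors, Tgfbr2 was highest in endothelial cells and microglia while Bmpr2 was found everywhere. Tgfbr2, at chr9:116084293-116175360 (-), which binds TGF-beta and recruits ALK5, was at 148 CPM (141 to 156) and 144 CPM (140 to 147) in endothelial cells. Microglia or macrophages were level with them, at 146 CPM (121 to 175) and 141 CPM (129 to 155), although the median endothelial marker there stood at 0.205% and 1.2% of its endothelial level. Mural cells were at 27.7 CPM (4 UMIs) and 25.7 CPM (63 UMIs). Astrocytes had 0 UMIs in control and 26.7 CPM in Alk1 ECKO (10.7 to 55.1, 7 UMIs in 3 cells). Neuronal classes, and Müller glia or late progenitors, had at most 11 UMIs of Tgfbr2 each. Bmpr2, at chr1:59763400-59879014 (+), the type II receptor of ALK1, was highest in endothelial cells, at 277 CPM (267 to 287) in control against 162 CPM (158 to 166) in the knockout. Bipolar cells came next, at 152 CPM (143 to 162) and 131 CPM (107 to 158). In control the endothelial and bipolar intervals were apart, and in the knockout they overlapped. Microglia or macrophages had the lowest level in both, 55.7 and 51.7 CPM.

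The activin type II receptors were higher in several neuronal classes than in endothelial cells. Acvr2b, at chr9:119402118-119434995 (+), was at 8.08 CPM (6.44 to 10.0) and 5.81 CPM (5.06 to 6.63) in endothelial cells. Neurogenic precursors were at 74.9 and 76.2 CPM, bipolar cells at 60.1 and 58.7 CPM, cones at 57.4 and 65.3 CPM and rods at 55.0 and 77.4 CPM. Acvr2a, at chr2:48814109-48903269 (+), was highest in amacrine or horizontal cells, at 81.9 CPM (66.8 to 99.3) and 86.5 CPM (46.1 to 148), and stood at 17.3 and 15.9 CPM in endothelial cells. Of the 2 receptors, Acvr2a was thus the higher in endothelial cells and in amacrine or horizontal cells, and Acvr2b the higher in rods, cones, bipolar cells and neurogenic precursors of both libraries. Overlapping genes limit some of these values, since strand use in the authors' counting is not given in the sources used here: Eng overlaps Fpgs, Acvr2a overlaps Orc4, and Acvrl1, Acvr2b, Acvr1 and Bmpr1a each overlap a Gm-numbered gene on the opposite strand.

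The makeup of the receptor pool, taken as the summed UMIs of the type I or of the type II members, differed between classes. Bmpr1b, Acvr1b, Acvr1c and Amhr2 are not members and were left out of these sums. In endothelial cells Acvrl1 gave 66.8% (64.6 to 69.0) of the type I member UMIs in control and 73.6% (72.4 to 74.7) in Alk1 ECKO. In rods Tgfbr1 and Bmpr1a gave 51.6% and 45.4% in control, and in microglia or macrophages Tgfbr1 gave 81.3% and 84.7% in control and Alk1 ECKO. Of the type II UMIs in endothelial cells Bmpr2 gave 61.5% (60.0 to 62.9) in control and 49.5% (48.6 to 50.4) in Alk1 ECKO, and Tgfbr2 32.9% (31.6 to 34.3) and 43.9% (43.0 to 44.8). In microglia or macrophages Tgfbr2 gave 66.5% and 69.7%. In rods Acvr2b gave 24.5% (22.8 to 26.4) of type II UMIs in control and 46.1% (38.6 to 53.7) in Alk1 ECKO.

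**Figure D2:**
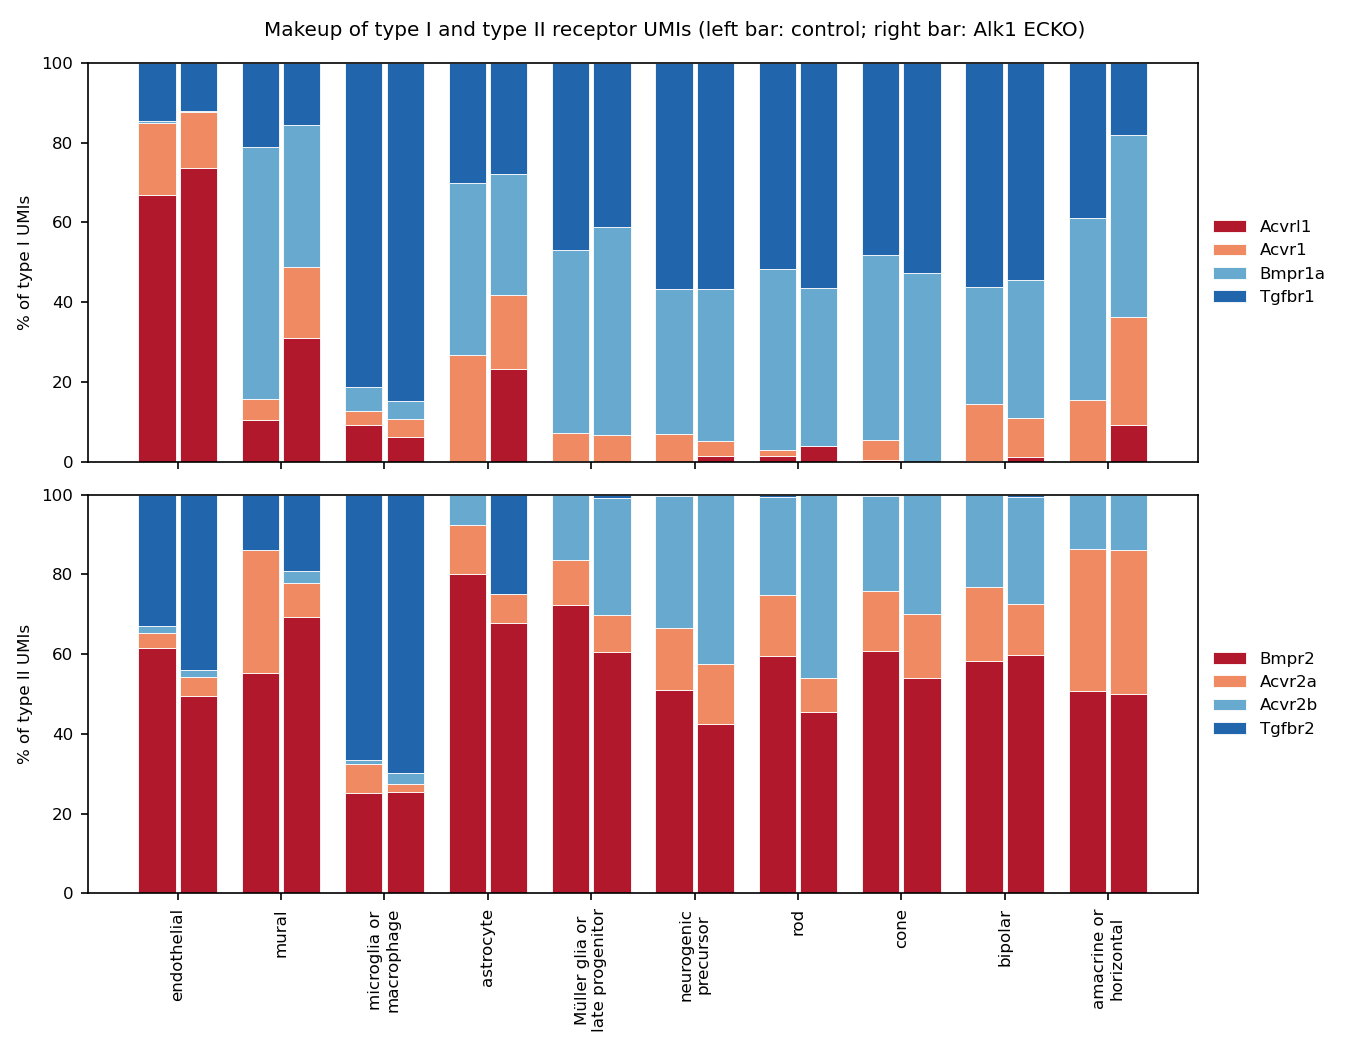
Share of each member in the summed UMIs of the type I (top) and type II (bottom) members in a class, in percent. Control is the left and Alk1 ECKO the right bar of each pair, and receptors outside the members are left out. Acvrl1 leads the type I pool only in endothelial cells (66.8% and 73.6%), and Tgfbr2 leads the type II pool only in microglia or macrophages (66.5% and 69.7%).

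The genes whose levels ran most like each member were found by Pearson's r of log2(CPM + 1) among 11095 genes. It was taken over 21 profiles, each a named class in 1 library with at least 10 cells. They include 12 control cells named pigment epithelium or melanocyte, a class too small in Alk1 ECKO for the other comparisons. The profiles share libraries and differ in depth, so r is a description. Acvrl1 ran most like Ecscr (r = 0.956), Slc43a3 (0.949) and Fxyd5 (0.940), and Eng most like Il3ra (0.946), Eva1b (0.946) and Itga5 (0.934). Ecscr is one of the endothelial markers used to name cells. Tgfbr2 had the closest partners, Trim47 (0.982), Psmb8 (0.978) and Rin3 (0.975). Acvr2b ran most like Zfp873 (0.963) and Mycn (0.942), Acvr2a like Evi5l (0.898), Acvr1 like Setd7 (0.897) and Tgfbr1 like Stxbp2 (0.892), while the best partner of Bmpr2 was looser (Sptan1, 0.821). Between members, r was 0.868 for Acvrl1 with Eng, 0.894 for Acvrl1 with Tgfbr2 and 0.103 for Acvrl1 with Bmpr2, and -0.74 for Acvrl1 with Bmpr1a.

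The central comparison asked whether the receptors differed in endothelial cells of Alk1 ECKO from those of control. None of the 8 measured members (at least 30 UMIs over both libraries) passed 1.5-fold relative to the median gene of the class, in either direction. Of the 12497 genes measured, 10.8% were past this fold in the higher direction and 10.6% in the lower. The median log2 ratio of all these genes was -0.21, and relative ratios are log2 ratios of Alk1 ECKO to control minus this median. The 8 members had a median relative ratio of -0.17, or -0.38 before centring. Acvrl1 had a relative ratio of 0.26 (0.16 to 0.35) and a log2 ratio of the CPM of 0.05. The labels do not say which exons are deleted, and a 3' tag outside them counts the transcript with or without the deletion, so this value checks neither the deletion nor the label.

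Bmpr2 had the lowest relative ratio of the 8, -0.56 (-0.63 to -0.50), just inside the 1.5-fold line. On the scale of the CPM as they are its log2 ratio was -0.77, past 1.5-fold, as were 20.5% of all genes in the lower and 5.83% in the higher direction. Eng had a relative ratio of -0.19 (-0.23 to -0.14) and Acvr1 of -0.23 (-0.42 to -0.05), and Tgfbr2 lay on the other side of the median at 0.17 (0.08 to 0.25), though its uncentred log2 ratio was -0.05. The intervals of Acvr2a (0.09, -0.16 to 0.33), Acvr2b (-0.26, -0.63 to 0.12) and Tgfbr1 (-0.15, -0.36 to 0.06) included the median. Weighting 5 sub-clusters alike in both, the relative ratio of Bmpr2 came to -0.20, that of Tgfbr2 to 0.33 and that of Acvr2a to 0.59, past 1.5-fold, and those of Acvr1 (0.12) and Acvr2b (0.17) turned to the other side of the median. With the mean of per-cell CPM Eng came to -0.01 and Acvr2a turned to -0.16. The 5 weighted sub-clusters covered 97.1% of endothelial cells in control and 56.4% in the knockout. Among them sub-cluster 4 had 13 control cells with 53577 UMIs and 0 UMIs of Acvr2a, Acvr2b and Acvr1, which were entered as 0. Acvr1 was below the median in each of the 4 sub-clusters where it was measured (-0.29 to -0.04), with intervals that included it. The part of these zeros in the weighted values was not tested.

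**Figure D3:**
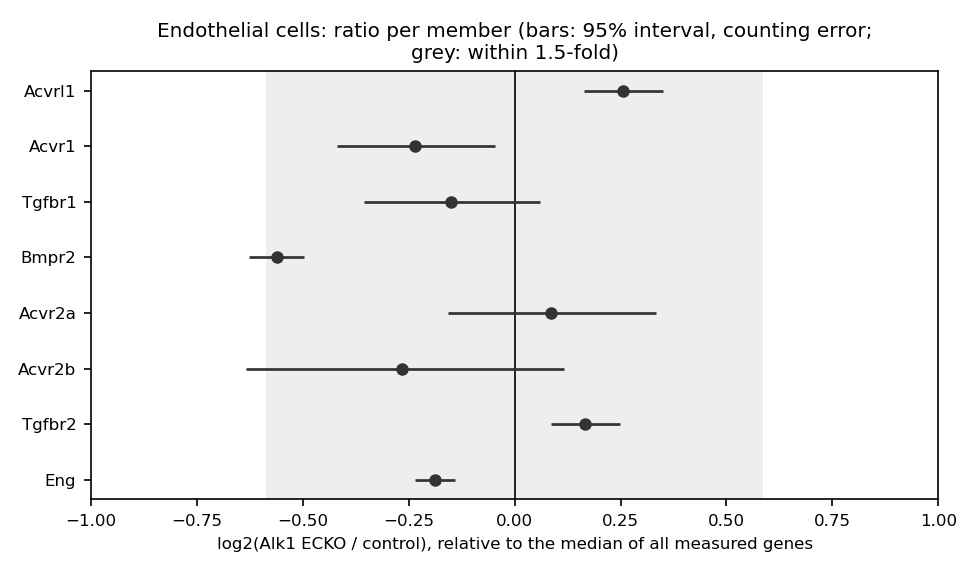
Relative log2 ratio of Alk1 ECKO to control in endothelial cells for the 8 measured members, with the median of all measured genes at 0, bars for the 95% interval of counting error and the grey band for ratios within 1.5-fold. All 8 points lie in the band, from -0.56 for Bmpr2 to 0.26 for Acvrl1.

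The share of endothelial cells with a UMI was compared at 1 depth. After each cell was thinned to 2000 UMIs, which left out 10 control and 165 Alk1 ECKO cells, an Acvrl1 UMI was found in 19.8% of control (15.5 to 24.7, 60 of 303 cells) and 23.5% of Alk1 ECKO cells (21.1 to 26.2, 258 of 1096). Before thinning the shares were 78.9% and 73.0%, at median depths of 19253 and 16174 UMIs. In rods, with median depths of 2727 and 2252 UMIs, the thinned shares were 0.497% and 0.420%. Thinned shares for Eng were 55.4% and 51.4%, for Bmpr2 34.7% (29.3 to 40.3) and 29.8% (27.1 to 32.6) and for Tgfbr2 26.1% and 24.6%, and at this depth the 2 intervals overlapped for each of these 4 genes. Thinning to 5000 UMIs left out 25 control and 345 Alk1 ECKO cells, and there the Bmpr2 intervals were apart, at 65.6% (59.8 to 71.1) and 53.2% (49.9 to 56.4), while those of the other 3 overlapped. In the same cells Acvrl1 and Eng were found together in 37.5% of control and 35.3% of Alk1 ECKO cells, against 36.8% and 34.7% from the product of their single shares. Eng and Bmpr2 were found together in 59.4% and 43.8%, against products of 55.6% and 41.7%. The minimum of 5000 UMIs changed the cells compared as well as the depth. Sub-clusters 4 and 5, described below, had median depths of 2549 and 2435 UMIs. They held 13 and 0 control cells against 189 and 181 of Alk1 ECKO. The part of this in the Bmpr2 shares was not tested.

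Endothelial cells of the libraries fell into sub-clusters in different proportions. In control 165 of 313 cells (52.7%) lay in sub-cluster 3, barrier capillary-like by its markers, which held 45 cells (3.57%) in Alk1 ECKO. Sub-cluster 0, led by Apod and Rarres1, held 9 control and 369 Alk1 ECKO cells (29.3%). Sub-cluster 1 was G2/M-like (82 and 260 cells), sub-cluster 2 tip-like (25 and 189), sub-cluster 7 was led by Six3os1 and Aqp1 (19 and 28), sub-cluster 4 had a median of 2549 UMIs (13 and 189), and sub-cluster 5, with a median of 2435 UMIs, was rich in MHC class II transcripts (0 and 181). Receptor levels differed by sub-cluster within a library. Bmpr2 in control ranged from 119 CPM (95.4 to 146) in tip-like cells, leaving aside sub-cluster 4 with 6 UMIs, through 191 CPM (178 to 204) in G2/M-like and 365 CPM (347 to 383) in barrier capillary-like cells to 544 CPM (481 to 614) in sub-cluster 7. In Alk1 ECKO it was at 142, 121, 336 and 474 CPM in the same 4, at 199 CPM in sub-cluster 0, 452 CPM in sub-cluster 5 and 65.2 CPM in sub-cluster 4. Tip-like and G2/M-like cells were thus low and barrier capillary-like and sub-cluster 7 cells high in Bmpr2 in both libraries.

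Acvrl1 was low in the same sub-clusters, at 76.9 CPM (58.5 to 99.1) in tip-like and 85.9 CPM (77.4 to 95.1) in G2/M-like control cells against 142 CPM in barrier capillary-like cells and 183 CPM in sub-cluster 7. In Alk1 ECKO it stood at 96.0, 103, 183 and 249 CPM in these 4. There it was at 143 CPM in sub-cluster 0, 67.2 CPM in sub-cluster 4 and 256 CPM (220 to 296) in sub-cluster 5, the highest. Its relative ratio was 0.41 in tip-like, 0.44 in G2/M-like, 0.38 in barrier capillary-like and 0.38 in sub-cluster 7 cells. The interval was above the median of all genes in 3 of the 5 sub-clusters with at least 10 cells in both libraries and below it in 0, and sub-cluster 4, with 7 control UMIs, stood at -0.79 (-1.88 to 0.56). Bmpr2 went both ways, with a relative ratio of -0.48 (-0.60 to -0.36) in G2/M-like and 0.35 (0.04 to 0.68) in tip-like cells. In barrier capillary-like cells it was -0.10 (-0.28 to 0.07). Eng was highest in sub-cluster 7, at 822 CPM (743 to 906) in control against 961 CPM (884 to 1044) in the knockout. Its relative ratio was -0.24 (-0.32 to -0.17) in G2/M-like, -0.30 (-0.47 to -0.12) in tip-like and 0.03 (-0.12 to 0.18) in barrier capillary-like cells. Tgfbr2 was highest in barrier capillary-like cells, at 203 and 228 CPM, with relative ratios from 0.18 to 1.02 over the 5 sub-clusters and an interval above the median in 2. The highest of these ratios was that of sub-cluster 4, with 2 control UMIs (-0.87 to 4.08), and the next was 0.48 in sub-cluster 7. Acvr2a in barrier capillary-like cells was at 18.5 CPM in control against 36.2 CPM in the knockout (0.98, 0.36 to 1.58).

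**Figure D4:**
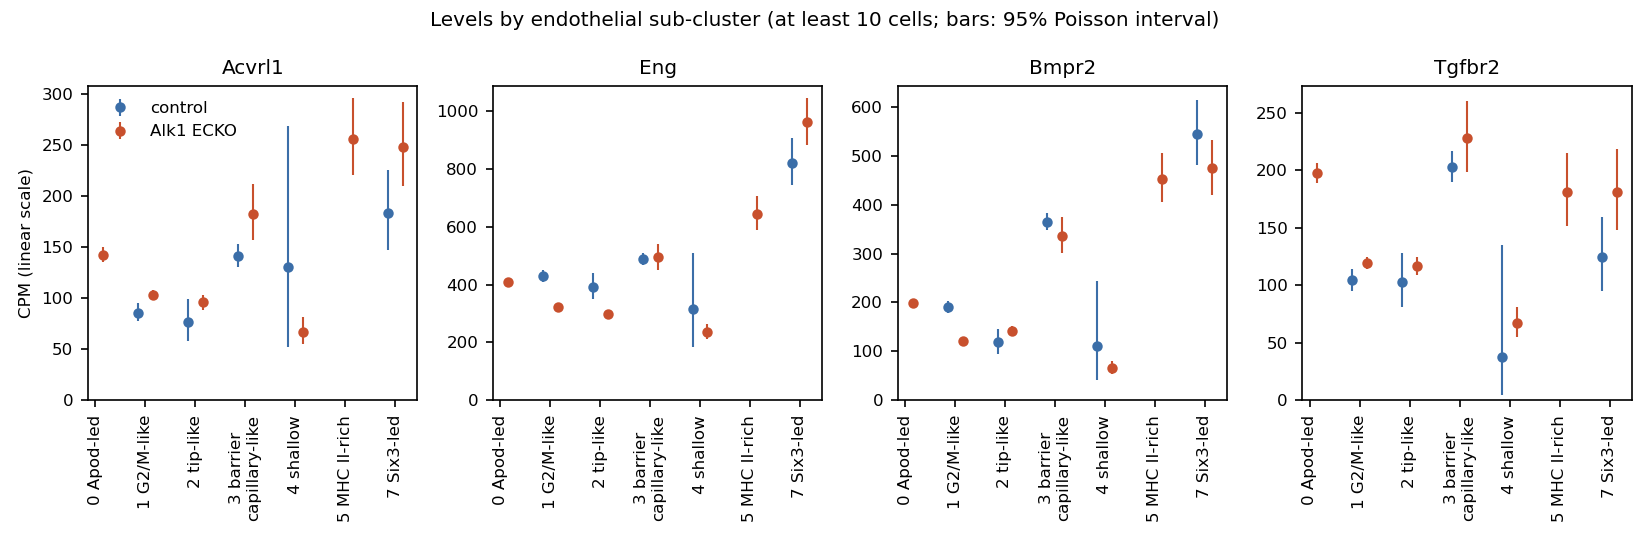
Level of Acvrl1, Eng, Bmpr2 and Tgfbr2 in CPM (linear axes from 0) by endothelial sub-cluster with at least 10 cells in the library, control in blue and Alk1 ECKO in red, with 95% Poisson intervals. Levels of Bmpr2 differ more between sub-clusters (119 CPM in tip-like to 544 CPM in sub-cluster 7 of control) than between libraries within 1 of them.

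Outside endothelium 49 pairs of a member and a class were measured, of which 5 were past 1.5-fold higher and 14 past 1.5-fold lower in Alk1 ECKO relative to the median of their class. Of all measured genes, the shares past the fold in the higher and lower direction were 8.01% and 13.9% for Müller glia or late progenitors, 11.3% and 15.4% in bipolar cells, 10.3% and 14.4% in rods, then 11.4% and 13.8% in microglia or macrophages. They were 12.2% and 17% in neurogenic precursors, 14.1% and 20.3% in cones, 14.3% and 16.6% in astrocytes, 18.4% and 23.7% in amacrine or horizontal cells and 23% and 21.7% in mural cells. In the 3 other classes with at least 100 cells in both libraries, 2 of 17 pairs were higher and 5 lower. In rods, where 10.3% of genes passed higher and 14.4% lower, Acvr2b was at 77.4 CPM in the knockout against 55.0 CPM in control (relative ratio 0.64, 0.28 to 0.97), Bmpr2 at 76.5 against 133 CPM (-0.66, -1.0 to -0.33) and Acvr2a at 14.2 against 34.8 CPM (-1.15, -2.01 to -0.41). The rods lay in 3 clusters, of 1000, 809 and 630 control and 162, 172 and 31 Alk1 ECKO cells, with median depths of 2374, 2507 and 6759 UMIs, so their makeup differed between the libraries. Its part in these ratios was not tested. In Müller glia or late progenitors (8.01% higher, 13.9% lower) Acvr2b was at 34.4 against 21.8 CPM (0.83, 0.20 to 1.43) and Tgfbr1 at 39.7 against 69.0 CPM (-0.63, -1.16 to -0.13). In bipolar cells (15.4% lower) Acvr1 (-0.81, -1.97 to 0.16) and Acvr2a (-0.60, -1.28 to 0.01) passed the fold, with intervals that included the median. Of 8 measured mural pairs 3 were higher and 3 lower (23% and 21.7% of all genes). Acvr2a was at 11.4 against 62.3 CPM (-2.43, -3.56 to -1.16, on 28 and 9 UMIs). Bmpr1a was at 35.5 against 83.1 CPM (-1.21, -2.09 to -0.21). The intervals of the 3 higher pairs included the median. Mural ratios rest on the 11 control cells, where Acvrl1 had 2, Acvr1 1 and Bmpr1a 12 UMIs.

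The other genes of the pathway included some past the fold in both directions. Of 89 listed genes 57 were measured in endothelial cells, and 14 of them were past 1.5-fold higher and 8 past 1.5-fold lower relative to the median, against the shares of all genes of 10.8% and 10.6%. Their median relative ratio was 0.03. The lists were chosen with earlier results of these data known, so the counts beside the shares of all genes are a description only. With sub-clusters weighted alike the counts were 18 and 2, and with the mean of per-cell CPM 14 and 5. The values of single pathway genes below keep each library's own mix of sub-clusters, and the part of this mix in them was not tested gene by gene. The remaining type I and II receptors, Bmpr1b, Acvr1b, Acvr1c and Amhr2, had at most 5 UMIs in the endothelial cells of either library. The ALK1 ligands Gdf2 (BMP9) had 0 UMIs there in both libraries, and Bmp10 had 1 in control and 0 in the knockout.

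Among 9 measured ligands 5 were higher and 1 lower, and levels of these genes are given for the knockout against control. Gdf15, a stress-induced ligand, was at 1.77 against 0.481 CPM (relative ratio 2.09, 0.80 to 3.76, on 67 and 5 UMIs). Inhba, an activin subunit, had 34 UMIs against 0 in control. With 3 counts in place of 0 its relative ratio was 1.85, given without an interval. Gdf11, an activin-like ligand, was at 0.528 against 1.64 CPM (-1.42, -2.43 to -0.40). Of 5 measured extracellular antagonists 1 was higher and 2 were lower: Mgp, the matrix Gla protein that binds BMPs, was at 47.9 against 9.62 CPM (2.53, 2.24 to 2.83), Htra1, a secreted protease, at 43.7 against 115 CPM (-1.18, -1.29 to -1.08) and Twsg1, a chordin partner, at 13.3 against 23.7 CPM (-0.62, -0.84 to -0.40). Of 7 co-receptors and decoys only Ltbp1, which anchors latent TGF-beta, was past the fold (1.24 against 2.50 CPM, -0.80, -1.52 to -0.05), and Tgfbr3 (betaglycan) was at -0.14 (-0.50 to 0.24).

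Of 18 measured SMADs and cytoplasmic transducers 3 were higher and 1 lower. Smad1, a transducer of ALK1, was at 236 against 137 CPM (1.0, 0.92 to 1.08), and the inhibitory Smad6 at 15.1 against 7.60 CPM (1.2, 0.86 to 1.56). Smad5 (-0.10), Smad4 (-0.21) and Smad7 (0.26) stayed within 1.5-fold, Smad9 had 5 and 12 UMIs, and Tab1, a partner of the kinase TAK1, was at 4.51 against 8.18 CPM (-0.65, -1.03 to -0.25). Of 18 measured targets 5 were higher and 3 lower. The cell cycle inhibitor Cdkn1a was at 171 against 73.6 CPM (1.43, 1.32 to 1.54) and the TGF-beta feedback gene Pmepa1 at 550 against 293 CPM (1.12, 1.07 to 1.18). Id3, a transcriptional inhibitor induced by BMPs, was at 340.1 against 719 CPM (-0.87, -0.91 to -0.83), while its relatives Id1 (0.05, -0.02 to 0.11) and Id2 (-0.36, -0.51 to -0.20) and the ALK1 target Tmem100 (0.53, 0.24 to 0.84) stayed within the fold. Lfng, a modifier of Notch receptors, was at 8.63 against 17.5 CPM (-0.81, -1.07 to -0.54). Also past the fold, and named after their values were seen, were Inhbb (1.23), Bmp6 (1.08), Bmp4 (0.71), Fkbp1a (0.76), Ccn2 (1.07), Hey2 (0.78) and Atoh8 (-0.62), and the intervals of Bmp6, Bmp4, Hey2 and Atoh8 included the median.

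**Figure D5:**
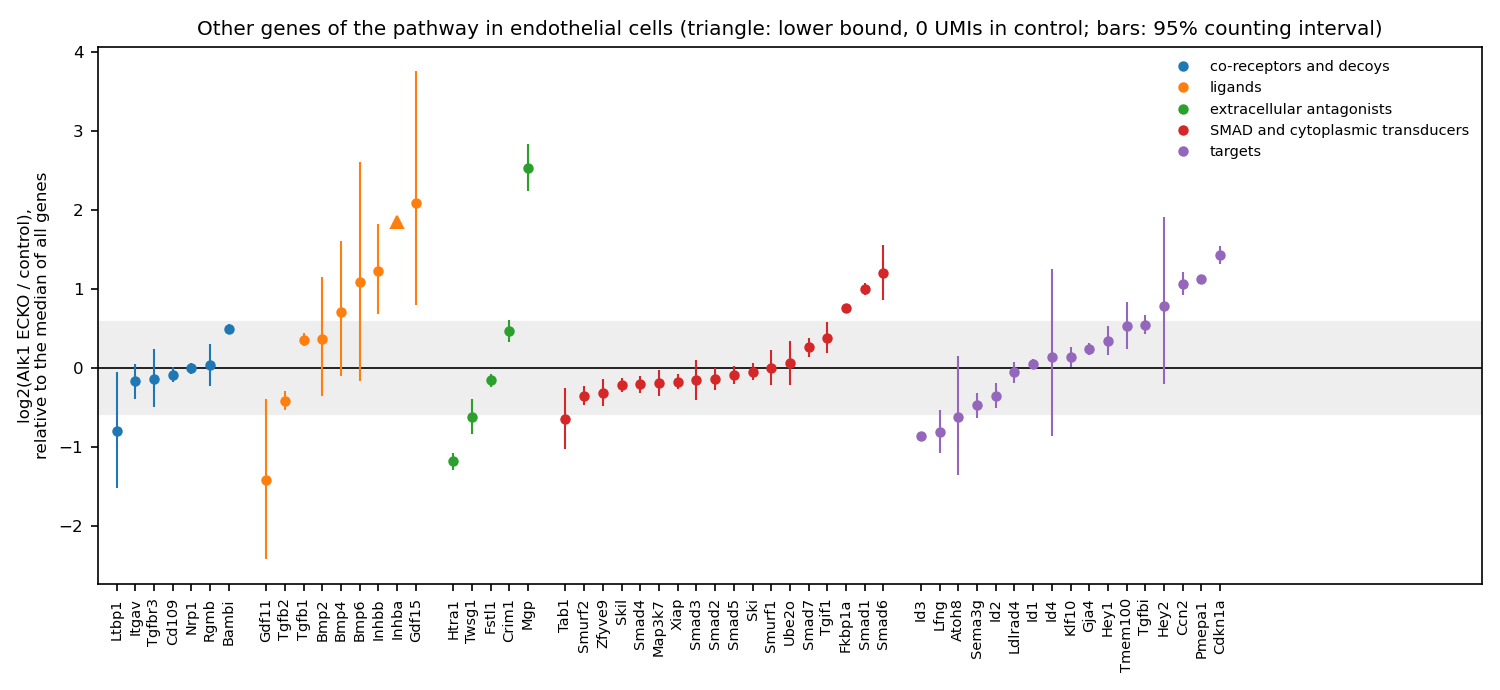
Relative log2 ratio of Alk1 ECKO to control in endothelial cells for all but 1 of the 57 measured pathway genes outside the 9 members, in 5 sub-lists by colour, with bars for the 95% interval of counting error and the grey band for ratios within 1.5-fold. Ratios reach from -1.42 for Gdf11 to 2.53 for Mgp, and the triangle marks Inhba, a lower bound.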

How the data were processed

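Retinal cells of 1 control and 1 Alk1 ECKO library were profiled with a 10x Genomics Chromium 3' kit, per the labels' protocols. What the authors deposited are raw counts of UMIs for every gene in every barcode. The file headers give Cell Ranger 5.0.1 as the software, whereas version 6.1.1, with FastQC 0.11.9 and mm10, stands in the submitters' processing notes. No source used here gives the counting settings.

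Barcodes were kept from 1000 UMIs and 500 genes upward if mitochondrial UMIs made up 10% or less. Scrublet's automatic threshold called 1 and 5 cells, so the highest scores were removed at 0.8% per 1000 cells (500 control and 144 Alk1 ECKO cells). Cells of both libraries were clustered together (scanpy 1.11.5, leidenalg 0.10.2, 3000 variable genes, 30 components, 15 neighbours, resolution 1, and 0.6 within endothelium), with the members and the pathway list left out. A cluster took a name from at least 3 markers of 1 list among its top 20 genes. The naming rule and the rules for setting clusters aside (median mitochondrial share under 1%, doublet score over 0.12, 2 or more top-10 genes from another class's markers) were written after clusters were seen. A sub-cluster of 4 control and 81 Alk1 ECKO endothelial cells with mural markers was set aside. Clusters without a name held 2079 and 182 cells.

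UMIs were summed per class and library. Intervals are exact Poisson for levels, exact conditional binomial for ratios and Clopper-Pearson for shares. A count of 0 against a measured gene was set to 3 counts per library. Ratio intervals and calls were checked on counts simulated as independent Poisson draws from the pooled endothelial profile. The intervals assume such counts, so this does not check them for UMIs clumped in few cells or for mixed sub-clusters. The members and lists were chosen with earlier results of these data known. Named were all members, the 2 highest and 2 lowest genes past 1.5-fold per sub-list, a fixed set of ligands, receptors, SMADs and Id genes, and up to 3 of the genes most like each member, and some genes the rule names are not reported here. Gene positions come from GENCODE vM21, promoters from RefSeq.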

Additional observations from a re-analysis of the deposited data

Results flagged for a closer look

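The set-aside Alk1 ECKO clusters with few mitochondrial transcripts, which enter no comparison, held receptor transcripts above the limit of 0.916 CPM that a count of 0 allows over their 3274365 UMIs. Acvrl1 was at 123 CPM (111 to 136) and Eng at 263 CPM (245 to 281) in these 1243 barcodes, against 119 and 359 CPM in Alk1 ECKO endothelial cells. Tgfbr2 was at 33.3 CPM against 144 CPM, and Bmpr2 at 14.0 CPM (10.3 to 18.7, 46 UMIs) against 162 CPM. Bmpr2 was thus 11.5-fold below its endothelial level while the Acvrl1 interval included its own. Acvr1 was at 7.94 CPM, Tgfbr1 at 7.33 CPM, Acvr2b at 5.19 CPM and Acvr2a at 2.14 CPM. Haemoglobin genes led both clusters, whose leading genes also held Gpihbp1 and Icam2, known from endothelium. The clusters had median depths of 1581 and 4911 UMIs, and control held 0 such barcodes. The part of depth, mitochondrial share and other cells' transcripts in these values was not tested.

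Acvrl1 lay on opposite sides of the class median in 2 classes, with a relative log2 ratio of 0.26 in endothelial cells, within 1.5-fold, and -0.85 (-1.58 to -0.08) in microglia or macrophages, where it had 24 control and 49 Alk1 ECKO UMIs. The endothelial interval lies above 0 only after the class median is subtracted, since the uncentred log2 ratio was 0.05 (-0.05 to 0.14). The difference between the classes was not tested, since each genotype had 1 library.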

How the results depend on the processing

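No paired analysis was possible because each genotype had 1 library, and for the same reason no library could be left out. The count of members past 1.5-fold lower in endothelial cells, 0 as reported, was 1 (Bmpr2) without the sub-cluster rich in MHC class II transcripts, without the G2/M-like sub-cluster, on the scale of the CPM as they are and with the low-mitochondrial clusters counted as endothelial (-0.60, -0.62, -0.77 and -0.66), 1 (Bmpr1a) with no minimum of UMIs, and 2 (Bmpr2 and Acvr2b) at 1.2-fold. The count of higher members, also 0, was 1 with the same sub-cluster makeup (Acvr2a, 0.59) and 1 with the mural-marker sub-cluster included (Bmpr1a). The same makeup gives weight to sub-cluster 4, where the 13 control cells held 0 UMIs of Acvr2a, Acvr2b and Acvr1, entered as 0. The member median of -0.17 came to -0.10 in cells with at least 2000 UMIs and at most 5% mitochondrial UMIs, -0.14 with the mean of per-cell CPM, 0.14 with the same makeup and -0.38 without centring. The 8 pathway genes called lower became 5 with the mean of per-cell CPM, 2 with the same makeup, 13 at 1.2-fold and 14 with no minimum, and the 14 called higher became 22 at 1.2-fold. Outside endothelium the 14 lower pairs became 8 under the stricter cell filter. No count or median moved beyond these limits at clustering resolution 0.5, without doublet removal or without the shallow sub-cluster. Nor did any with members and pathway genes used for clustering or from 5000 UMIs per cell. Placing the low-mitochondrial clusters in their best-matching class, erythroid, left the endothelial cells as they were. The equal endothelial values of that setting were thus fixed in advance and check nothing. Over the 14 alternatives on the relative log2 scale, that setting included, Acvrl1 ranged from 0.13 to 0.30 and Bmpr2 from -0.66 to -0.20. Without centring they stood at 0.05 and -0.77. Counting low-mitochondrial clusters or the mural-marker sub-cluster as endothelial, leaving out the shallow sub-cluster and a minimum of 5000 UMIs were chosen after seeing the data. Causes of these shifts were not tested.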
